A study of Mus musculus with 11 samples.

Results

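The tumour necrosis factor (TNF) superfamily was described in eosinophils sorted from mouse blood, as the protein-coding genes whose symbol begins with Tnfsf or Tnfrsf and a number. This naming rule found 31 of the 55486 genes in the count table, 11 Tnfsf ligands and 20 Tnfrsf receptors. One further row with such a name, Tnfsf13os, is an antisense RNA and was not a member. Members known by other symbols, such as Tnf, Ltb, Fas and Cd40, fall outside the rule and are treated as neighbours in the pathway.

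The treated group, labelled CIS+IT, held 7 FVB/N mice given aPD1 and aCTLA4, antibodies to inhibitory receptors of T cells, along with the platinum drug cisplatin. The control group, labelled Control Ab, held 4 FVB/N mice given control antibody. All 11 mice had metastatic disease derived from mammary tumours, and blood was taken by heart puncture at day 21 of treatment. The sort gate took live cells that were F4/80+, CD11b+, CD45+ and CD3-, of high side scatter and low in Ly6g, 1 library was made per mouse by Smart-seq2, and reads were counted per gene. Doses and age are not stated in the labels, and the control group received no drug, so the effect of cisplatin and that of the antibodies cannot be told apart.

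Ligands of this superfamily are mostly trimeric membrane proteins that can be shed, and they act by clustering their receptors on a neighbouring cell. Receptors with a death domain in the cytoplasmic tail can recruit adaptors that start cell death, most others bind TRAF adaptors and turn on NF-kB, and decoys bind ligand without passing on a signal. In blood the family is best known for costimulation of T cells, for the survival of B cells through BAFF and APRIL, and for the response of myeloid cells to TNF.

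Library totals ran from 5356118 to 8016658 counts in treated and from 3733156 to 6721060 counts in control libraries. Control 3 and control 4 stood apart from the other libraries. Haemoglobin genes took 28.2% and 20.1% of their counts, against 1.16% to 4.42% in the treated libraries and at most 1.06% in control 1 and control 2, and they had counts for 10775 and 11263 genes, where the other 9 libraries had 12639 or more. Members are therefore given with and without these libraries. Identifiers in the table header begin with 19 for every treated and 20 for every control library, so anything these digits stand for cannot be told apart from the treatment. Summed eosinophil markers (9 genes, 8 of them detected in all libraries) ran from 2957 to 10095.5 CPM (counts scaled to library size with TMM, the trimmed mean of M values) in treated and from 6194 to 9093 CPM in control libraries. In control 3 (6372 CPM) Prg2 (2290 CPM), Epx, Ear1 and Ear2 were at their highest of all libraries. Siglecf (243 CPM), Il5ra (22.8 CPM) and Adgre1 (718 CPM) were at their lowest there, and Ccr3 and Alox15 were within the range of the other libraries. Erythroid markers (9 genes) summed to 12776 to 46976 CPM in treated libraries and to 9502, 1578, 443645 and 302274 CPM in control 1 to control 4. Neutrophil markers (10 genes) summed to 4849 to 14377 CPM in treated and 5817 to 16327 CPM in control libraries. Retnlg alone made up most of that sum in each library. Platelet markers (9 genes) summed to 923 to 3270 CPM in treated libraries and to 393, 266, 11650 and 9625 CPM in control 1 to control 4. Sums for other blood cells stand beside the members concerned. In bulk RNA, fewer cells of a type and less RNA per cell cannot be told apart.

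The promoters of 3 members on which the results turn are shown first. They belong to the ligand and the TRAF-binding receptor with the highest mean level per length over all libraries (Tnfsf14 and Tnfrsf1b). The third is the one member that an alternative test called (Tnfrsf11a). Each is the 250 bases before the gene's start on its own strand, from RefSeq on GRCm38.p6, which held promoters for 24 of the 31 members. Capitals mark matches, on both strands, to GAGGAA (the core of ETS and PU.1 sites), a loose kB form (GGG and CC with 5 bases between them) and TTCNNNGAA (a STAT form). The window of Tnfsf14 is chr17:57194182-57194431 (minus strand), that of Tnfrsf1b chr4:145246871-145247120 (minus strand) and that of Tnfrsf11a chr1:105780473-105780722 (plus strand).
Tnfsf14: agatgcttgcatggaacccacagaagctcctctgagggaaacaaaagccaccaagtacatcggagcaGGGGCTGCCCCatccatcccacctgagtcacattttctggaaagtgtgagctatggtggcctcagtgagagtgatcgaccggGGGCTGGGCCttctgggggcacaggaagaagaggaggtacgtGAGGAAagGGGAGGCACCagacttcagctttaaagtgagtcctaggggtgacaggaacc
Tnfrsf1b: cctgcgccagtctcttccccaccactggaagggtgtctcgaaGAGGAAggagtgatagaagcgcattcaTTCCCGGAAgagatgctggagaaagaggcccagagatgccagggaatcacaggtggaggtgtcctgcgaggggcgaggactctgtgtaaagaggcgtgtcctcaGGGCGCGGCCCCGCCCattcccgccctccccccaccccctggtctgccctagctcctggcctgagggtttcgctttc
Tnfrsf11a: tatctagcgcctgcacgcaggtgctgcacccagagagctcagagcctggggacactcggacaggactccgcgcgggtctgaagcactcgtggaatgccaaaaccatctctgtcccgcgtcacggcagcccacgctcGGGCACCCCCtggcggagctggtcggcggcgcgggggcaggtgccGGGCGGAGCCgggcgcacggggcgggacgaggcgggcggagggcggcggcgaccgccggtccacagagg
GAGGAA had 1 match in Tnfsf14, 1 in Tnfrsf1b and 0 in Tnfrsf11a. The loose kB form had 4, 3 and 2 matches in the same order, some overlapping one another, and the STAT form 0, 1 and 0. Of 32851 promoter windows of this length, 23.3% held GAGGAA, 45.8% the loose kB form and 7.02% the STAT form. These matches describe the sequence and are not evidence of binding.

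Counts were found for 27 of the 31 members, and 8 were detected in all 11 libraries (the heat map of all members). In all, 4 had 0 counts everywhere, namely the ligands Tnfsf11 (RANKL) and Tnfsf18 (the GITR ligand), the plasma cell receptor Tnfrsf17 (BCMA) and the soluble decoy Tnfrsf11b (osteoprotegerin). A treated library held counts for 15 to 22 members and a control library for 12 to 17. Members together took 0.0582% to 0.098% of all counts in treated and 0.0551% to 0.083% in control libraries. The genes Tnfsf14, Tnfrsf1b, Tnfrsf26, Tnfrsf13b and Tnfrsf18 together made up 69.5% to 92.2% of the members' counts in treated and 73.4% to 89.2% in control libraries.

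**Figure D1:**
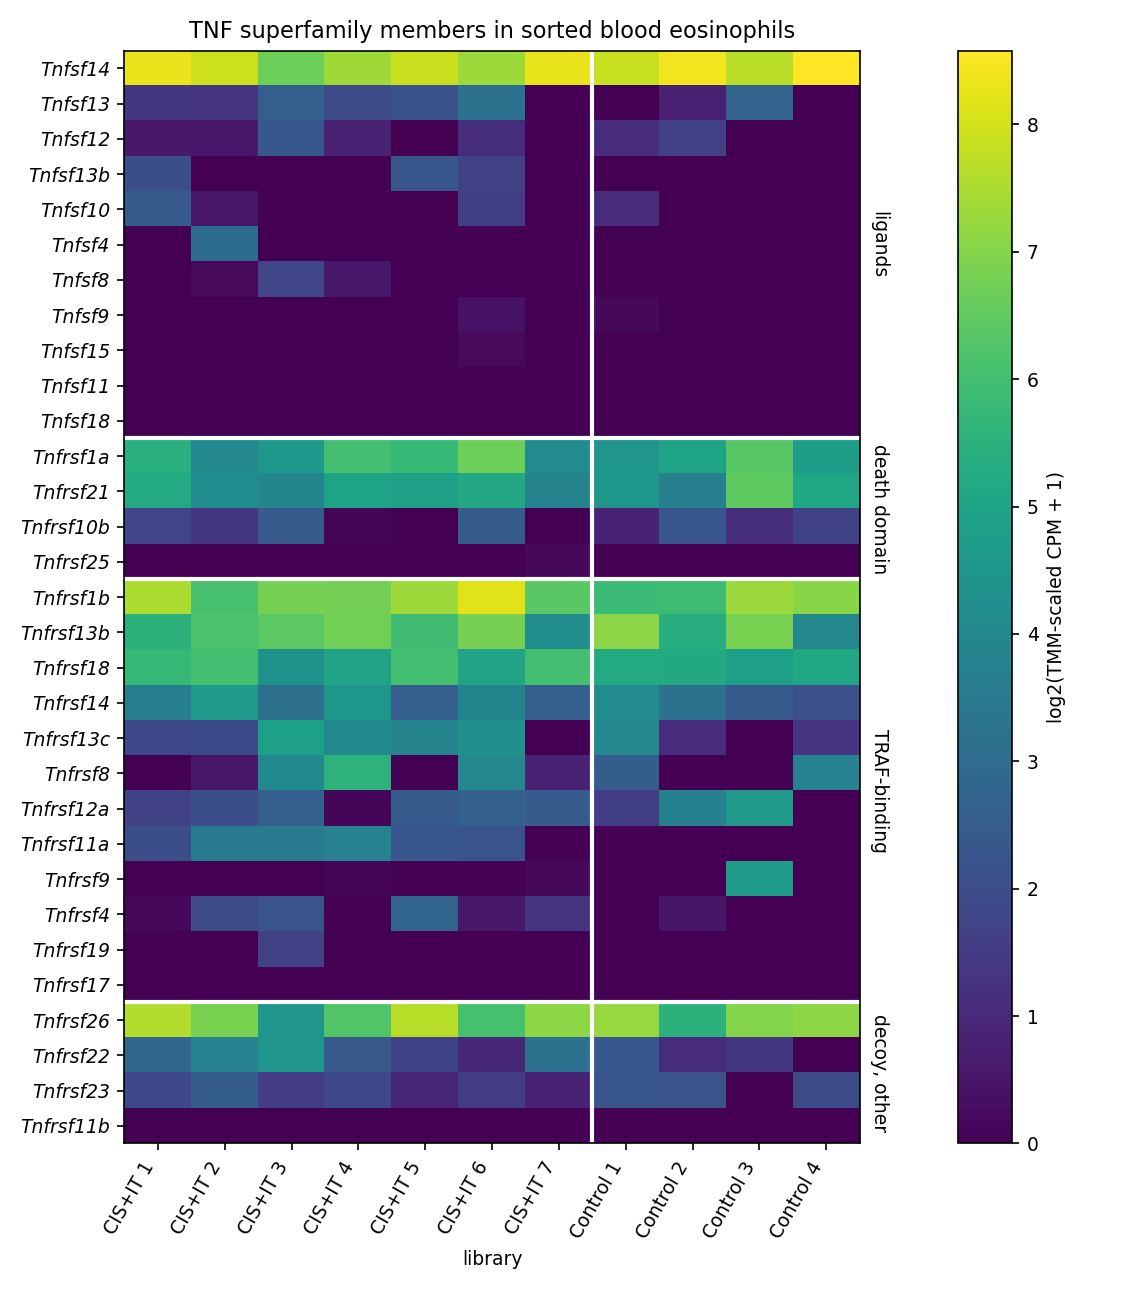
Level of each of the 31 members (rows, grouped by role) in each library (columns, treated left of control), as log2 of TMM-scaled CPM plus 1. Tnfsf14 is bright in all 11 libraries, most other ligands are at or near 0, and Tnfrsf11a is at 0 in all 4 control libraries and in treated 7.

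Between treated and control mice no member passed the test. The filter on low counts left 16 members in the test, 2 ligands and 14 receptors, and 0 had an adjusted p under 0.05 (edgeR quasi-likelihood test, Benjamini-Hochberg adjustment over all 11389 tested genes). The same count over all genes was also 0, or 0.0%. Of the 16 tested members 1, Tnfrsf11a, had an unadjusted p under 0.05, against 777 of all tested genes (6.82%). With 0 counts in all 4 control libraries, Tnfrsf11a passed the filter through its treated counts alone. Its fold change could only be above 0. DESeq2, run as an alternative, gave adjusted p-values for 20 members and called 1, again Tnfrsf11a, against 79 of 12933 genes (0.611%). The fold change was above 0 for 9 tested members and below 0 for 7, against 51.8% of all tested genes above 0, with a median of 0.31 on the log2 scale, and the median over all tested genes was 0.03. Without control 3 and control 4 these medians were 0.47, over the same 16 members, and 0.10, over the 13012 genes tested there. With Tnfrsf11a at its lower bound the median of the members stayed at 0.31. It could not have moved, because Tnfrsf11a remained the highest of the 16 values. Without control 3 and control 4, 20 members could be tested, again 0 passed, and 2 (Tnfrsf11a and Tnfrsf1b) had an unadjusted p under 0.05, against 8.57% of all genes there. The groups overlapped for all 16 tested members, while they did not for 107 of all tested genes (0.94%).

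**Figure D2:**
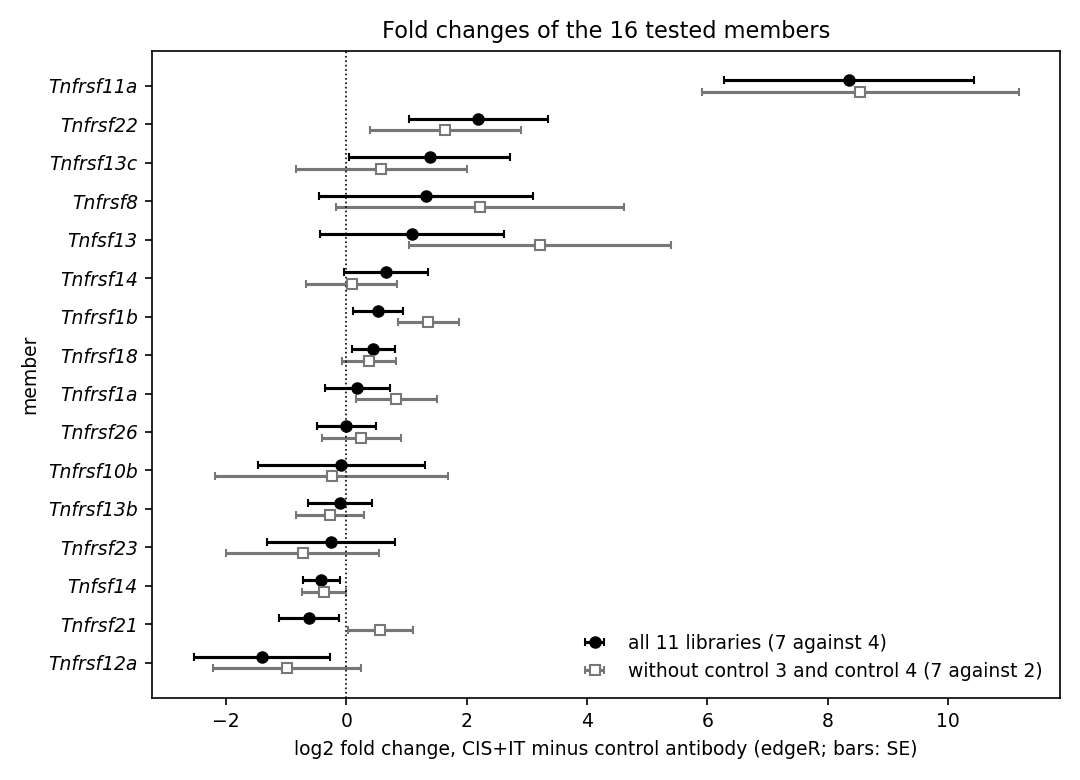
Fold changes (log2, treated minus control, bars are SE) of the 16 tested members from edgeR, with all libraries (filled circles) and without control 3 and control 4 (open squares). Most intervals span or come near 0, Tnfrsf21 changes side without the 2 control libraries, and the value of Tnfrsf11a depends on the small count edgeR adds for its empty control group.

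Among the ligands, Tnfsf14 (ENSMUSG00000005824, chromosome 17, 57189492 to 57194177, GRCm38) was by far the most abundant. It encodes LIGHT, a ligand of HVEM and of the lymphotoxin beta receptor that costimulates T cells. Tnfsf14 stood at a lowest of 102, a median of 234 and a highest of 323 CPM in treated libraries, and at 233, 347, 205 and 381 CPM in control 1 to control 4. The 2 highest of all 11 values were those of control 4 and control 2, while treated 3 was the lowest and the groups overlapped. Treated 3 also had the lowest eosinophil (2957 CPM) and neutrophil (4849 CPM) marker sums. Neutrophil sums were 5516 and 7998 CPM in treated 4 and treated 6, the next lowest in Tnfsf14, and 13177, 14377 and 16327 CPM in treated 1, treated 7 and control 4, which were high in it. Control 3, with 205 CPM of Tnfsf14, had a neutrophil sum of 14742 CPM, and control 1, with 233 CPM, one of 5817 CPM. Retnlg made up most of each sum, at 13695 and 15651 CPM in treated 7 and control 4. S100a8, of the same list, was at 6.77, 81.2 and 203 CPM in treated 3, treated 4 and treated 6. It was at 382, 15.9 and 4.36 CPM in treated 1, treated 7 and control 4, and at 1475 CPM in control 3. The part of neutrophil transcripts in the level of Tnfsf14 was not tested. The mean was 218 ± 80.8 CPM in treated mice (SD, n = 7), against 292 ± 85.7 CPM in control mice (SD, n = 4), which is -0.42 ± 0.30 as a log2 fold change (SE; adjusted p = 0.866, edgeR). It was -0.38 without control 3 and control 4. Per kilobase of exon, the scale on which genes can be compared, Tnfsf14 stood at 118 ± 43.8 CPM in treated mice, against 158 ± 46.4 CPM in control mice, and it was the highest of the members in each of the 11 libraries. It took 18.3% to 46.3% of the members' counts in treated and 23.9% to 57.4% in control libraries.

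**Figure D3:**
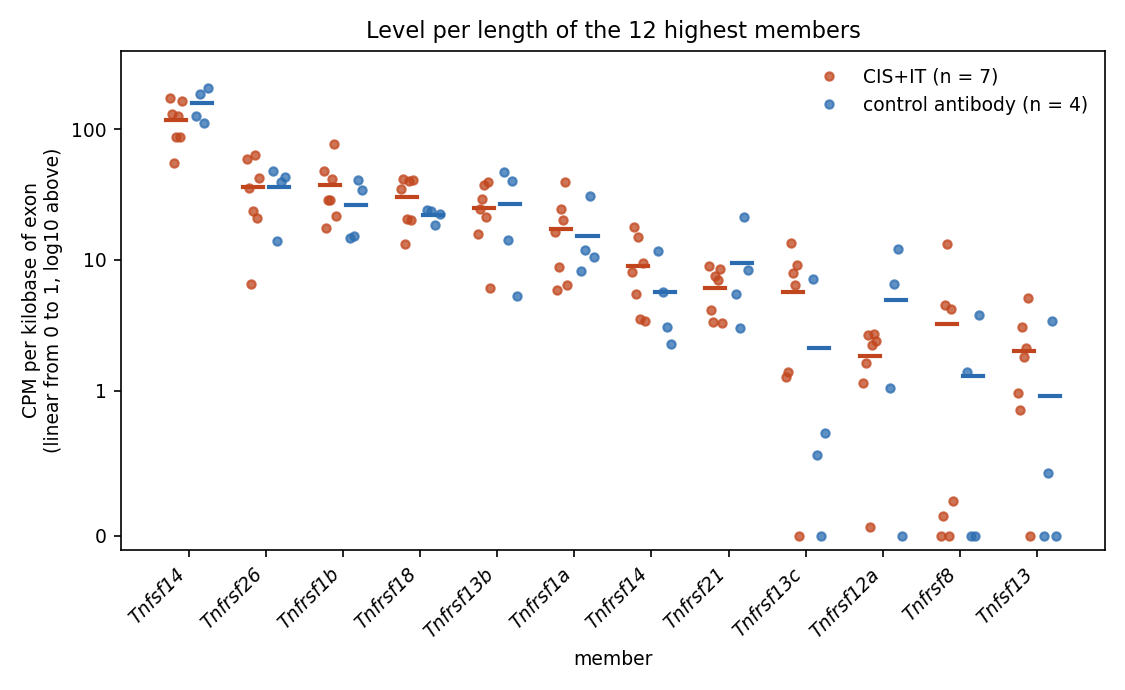
CPM per kilobase of exon for the 12 members with the highest mean, one point per library, treated left of control, with group means as bars; the axis is linear up to 1 and logarithmic above. Tnfsf14 lies above the other members in each library, and Tnfrsf26, Tnfrsf1b, Tnfrsf18 and Tnfrsf13b follow with ranges that overlap.

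The other ligands were close to the limit of detection. Tnfsf13, which encodes the B cell factor APRIL, was the second ligand tested and stood at 0 to 8.37 CPM in treated (median 2.95) and at 0, 0.708, 5.61 and 0 CPM in control 1 to control 4. Its log2 fold change was 1.08 ± 1.53 (SE; adjusted p = 0.945, edgeR) and 3.21 ± 2.18 without control 3 and control 4, where 2 control libraries with 5 counts in all remained. Reads of Tnfsf13 and of Tnfsf12 (TWEAK) may be shared with the read-through gene Tnfsfm13, which overlaps both on the same strand, and with the antisense Tnfsf13os, so these levels are uncertain. Tnfsf12 had counts in 5 treated and 2 control libraries and did not exceed 3.97 CPM. Tnfsf13b, which encodes BAFF, had counts in 3 treated libraries (26, 27 and 13 counts) and in no control library.

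Of the remaining ligands, Tnfsf10 (TRAIL) had counts in 3 treated and 1 control library, at up to 4.45 CPM. Tnfsf4 (the OX40 ligand) had 45 counts, all in treated 2. Tnfsf8 (the CD30 ligand) had 22 counts over 3 treated libraries, Tnfsf9 3 counts over 1 treated and 1 control library, and Tnfsf15 1 count in 1 treated library. In all, 7 of the 27 detected members had counts in treated libraries only and 0 in control libraries only. Over all 21666 detected genes these shares were 20.7% and 5.35%, with more treated than control libraries and more reads in them.

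The death domain receptors were led by Tnfrsf1a, which encodes TNF receptor type I. Tnfrsf1a stood at a lowest of 15.2, a median of 42.1 and a highest of 102 CPM in treated libraries, and at 21.4, 30.7, 80.1 and 27.3 CPM in control 1 to control 4. Treated 6 and control 3 were the highest of their groups, and the groups overlapped. The means were 44.9 ± 31.2 CPM in treated mice (SD, n = 7), against 39.9 ± 27.1 CPM in control mice (SD, n = 4), which is 0.18 ± 0.54 as a log2 fold change (SE; adjusted p = 0.976, edgeR). Without control 3 and control 4 it was 0.83 ± 0.67, and without treated 6 it was -0.17.

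Tnfrsf21 encodes DR6, a death domain receptor known in T and B cells and in neurons. It stood at a lowest of 13.4, a median of 28.7 and a highest of 36.7 CPM in treated libraries, and at 22.4, 12.3, 86.9 and 34.5 CPM in control 1 to control 4. Control 3 was higher than any other library. The mean was 25.1 ± 10.1 CPM in treated mice (SD, n = 7), against 39.1 ± 33.2 CPM in control mice (SD, n = 4). The log2 fold change of -0.63 ± 0.50 (SE, with adjusted p = 0.891, edgeR) turned to 0.16 without control 3 and to 0.56 ± 0.54 without control 3 and control 4. Of the other death domain receptors, Tnfrsf10b, the mouse receptor for TRAIL, stood at 0 to 4.69 CPM in treated mice, against 0.761 to 3.96 CPM in control mice (log2 fold change -0.09 ± 1.39, SE; adjusted p = 0.997, edgeR). Tnfrsf25 (DR3) had 1 count, in treated 7.

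Tnfrsf1b encodes TNF receptor type II, which lacks a death domain and binds TRAF2. Of the TRAF-binding receptors it had the highest mean over all libraries, also per kilobase (33.6 CPM). Per kilobase, Tnfrsf13b was higher in the mean of control mice (26.7 against 26.4 CPM). Tnfrsf18 or Tnfrsf13b also exceeded Tnfrsf1b on that scale in several libraries of both groups. Tnfrsf1b (chromosome 4, 145213463 to 145246870) stood at a lowest of 67.3, a median of 111 and a highest of 294 CPM in treated libraries, and at 56.3, 58.7, 156 and 132 CPM in control 1 to control 4. Each treated library lay above control 1 and control 2, and control 3 and control 4 lay within the treated range. The mean was 144 ± 77.5 CPM in treated mice (SD, n = 7), against 101 ± 50.8 CPM in control mice (SD, n = 4). The log2 fold change was 0.52 ± 0.41 (SE; adjusted p = 0.892, edgeR). Without control 3 and control 4 it was 1.36 ± 0.50, with an unadjusted p of 0.0174 that did not pass (adjusted p = 0.465, edgeR). Per kilobase, the level of Tnfrsf1b exceeded that of Tnfrsf1a in each of the 11 libraries, by 1.18 to 3.41 times in treated and by 1.30 to 3.28 times in control libraries.

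Both TNF receptors are also expressed by monocytes. The 12 monocyte and macrophage markers, 10 of them detected in all libraries, summed to 2157 to 16318 CPM in treated libraries and to 1952, 919, 19605 and 4116 CPM in control 1 to control 4. Treated 6 had the highest marker sum of its group and the highest Tnfrsf1a and Tnfrsf1b, and control 3 the highest marker sum, Tnfrsf1a and Tnfrsf1b of its group. The part of these markers in the levels of both receptors was not tested.

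**Figure D4:**
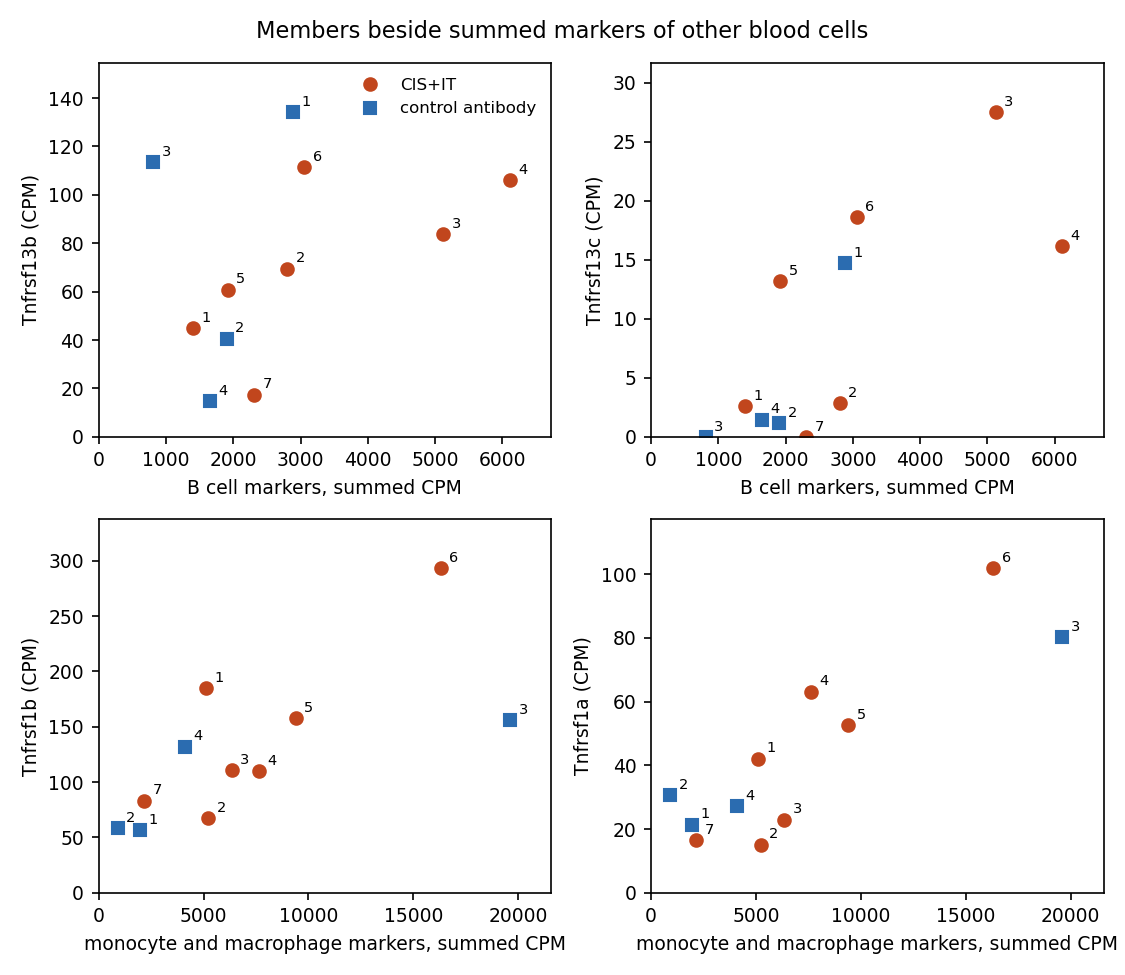
Members (vertical, CPM) against summed markers of B cells or of monocytes and macrophages (horizontal, CPM), one point per library, numbered by replicate, circles treated and squares control. Tnfrsf1a and Tnfrsf1b are highest in treated 6, which has the highest monocyte and macrophage sum of its group, and Tnfrsf13b is high in control 3, where the B cell sum is the lowest of all.

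Tnfrsf11a encodes RANK, the receptor for RANKL that is needed for osteoclast formation and is also found on dendritic cells. It was the member with the smallest p-value. Tnfrsf11a (ENSMUSG00000026321, chromosome 1, 105780718 to 105847981) had 26, 67, 70, 110, 28, 22 and 0 counts in treated 1 to treated 7 and 0 counts in all 4 control libraries. These were 3.21, 10.58, 10.30, 12.98, 4.06, 3.68 and 0 CPM, so that the groups met at 0 in treated 7. The treated mean of 6.40 ± 4.83 CPM (SD, n = 7) was at least 43.1-fold higher than a floor of 3 counts over the control group (0.149 CPM). At that mean, control 1 to control 4 would hold 50.5, 45.2, 15.98 and 17.6 counts at their depths. Treated 7 also held 0 counts, at a depth (7.29 counts per CPM) between those of control 1 (7.88) and control 2 (7.07).

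With edgeR, fitted across all genes, the adjusted p of Tnfrsf11a was 0.626 and the unadjusted p was 0.00193 (quasi-likelihood test, not an exact or permutation test). DESeq2 gave an adjusted p of 0.00169. Without control 3 and control 4 the edgeR adjusted p was 0.354. Of all tested genes, 53 had 0 counts in all control libraries, and 15 of these, Tnfrsf11a among them, had counts in 6 or more treated libraries. Its ligand Tnfsf11 had 0 counts in every library. The 7 dendritic cell markers summed to 28.7 to 84.2 CPM in treated libraries and to 20.3, 14.0, 150 and 56.0 CPM in control 1 to control 4. In control 3 most of that sum was Itgax (91.4 CPM). Flt3 (29.7 CPM), Ccr9 (21.6 CPM) and Xcr1 (7.61 CPM) were also at their highest of all libraries there, while Zbtb46, Siglech and Cd209a were at 0. B cell markers summed to 1402 to 6113 CPM in treated libraries and to 813 to 2884 CPM in control libraries. Treated 4 had the highest B cell sum and the highest Tnfrsf11a, while control 1, with a B cell sum of 2884 CPM, had 0 counts and treated 1, treated 2 and treated 5, with sums of 1402, 2801 and 1924 CPM, had counts. Monocyte and macrophage markers summed to 5102 to 16318 CPM in treated 1 to treated 6, which had counts of Tnfrsf11a. In treated 7, with 0 counts, they summed to 2157 CPM. Control 1 to control 4, also with 0 counts, had sums of 1952, 919, 19605 and 4116 CPM. The part of B cell, dendritic cell and monocyte transcripts in the difference in Tnfrsf11a was not tested.

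The B cell receptors of BAFF and APRIL were represented by Tnfrsf13b (TACI) and Tnfrsf13c (the BAFF receptor). Tnfrsf13b was detected in all libraries, at a lowest of 17.4, a median of 69.5 and a highest of 111 CPM in treated libraries, and at 134, 40.6, 113 and 14.9 CPM in control 1 to control 4. The control libraries spanned the whole treated range. Its mean was 70.5 ± 33.3 CPM in treated mice (SD, n = 7), against 75.8 ± 57.1 CPM in control mice (SD, n = 4), which is -0.11 ± 0.54 as a log2 fold change (SE; adjusted p = 0.988, edgeR), and 0.33 without control 1 and -0.28 without control 3 and control 4.

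Tnfrsf13c stood at a lowest of 0, a median of 13.2 and a highest of 27.5 CPM in treated libraries, and at 14.7, 1.13, 0 and 1.45 CPM in control 1 to control 4. It was absent from treated 7 and control 3, and control 1 was the one control library within the upper part of the treated range. The log2 fold change was 1.38 ± 1.34 (SE; adjusted p = 0.923, edgeR), 3.68 without control 1 and 0.58 without control 3 and control 4. Of 14 B cell markers, 7 were detected in all libraries, and none was at 0 throughout. Tnfrsf13c was highest in treated 3, which with treated 4 had the 2 highest B cell sums (5125 and 6113 CPM). In control 3 Tnfrsf13b stood at 113 CPM and the B cell sum was the lowest of all (813 CPM). Of the 14 markers 7 were at 0 there (Cd79b, Pax5, Ebf1, Blk, Fcrla, Fcer2a and Cr2), and the others included Ighm at 589 CPM, Bank1 at 177 CPM, Ighd at 20.03 CPM and Cd22 at 16.03 CPM. Per kilobase, Tnfrsf13b exceeded Tnfrsf13c by 2.19 to 17.7 times in the 6 treated libraries with both and by 6.59 to 25.9 times in 3 such control libraries. The part of B cell transcripts in the levels of Tnfrsf13b and Tnfrsf13c was not tested.

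Of the costimulatory receptors, Tnfrsf18 and Tnfrsf14 were detected in all libraries. Tnfrsf18 encodes GITR, best known on regulatory T cells. It stood at a lowest of 20.2, a median of 53.0 and a highest of 63.2 CPM in treated libraries, and at 36.9, 36.1, 28.4 and 34.2 CPM in control 1 to control 4. The control values lay close together inside the treated range. Means were 46.2 ± 18.2 CPM in treated mice (SD, n = 7), against 33.9 ± 3.81 CPM in control mice (SD, n = 4), which is 0.45 ± 0.36 as a log2 fold change (SE; adjusted p = 0.892, edgeR). It was 0.37 without control 3 and control 4. T and NK cell markers summed to 23.7 to 76.1 CPM in treated mice, against 25.4, 37.6, 180 and 127 CPM in control 1 to control 4. Foxp3, the factor that defines regulatory T cells, had counts in treated 2 (2.21 CPM) and treated 7 (0.137 CPM) only. Tnfrsf18 stood at 63.2 and 63.0 CPM in these libraries, and at 61.7 CPM in treated 5, where Foxp3 was at 0. The part of T and NK cell transcripts in the level of Tnfrsf18 was not tested.

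Tnfrsf14 encodes HVEM, a receptor of LIGHT. It stood at a lowest of 4.94, a median of 11.7 and a highest of 25.7 CPM in treated libraries, and at 16.7, 8.21, 4.41 and 3.27 CPM in control 1 to control 4. Treated 2 was the highest, and control 3 and control 4 were the lowest of all 11. The log2 fold change was 0.65 ± 0.70 (SE; adjusted p = 0.931, edgeR), and 0.09 ± 0.76 without control 3 and control 4. Per kilobase, the level of the ligand gene Tnfsf14 exceeded that of Tnfrsf14 by 5.85 to 47.9 times in treated and by 10.8 to 90.7 times in control libraries.

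Of the other costimulatory receptors, Tnfrsf8, Tnfrsf9 and Tnfrsf4 had counts in 7, 3 and 7 of the 11 libraries. Tnfrsf8 encodes CD30, a receptor of activated lymphocytes, and stood at 46.2 CPM in treated 4, 15.7 CPM in treated 3 and 14.6 CPM in treated 6, at 0.823 CPM or less in the other treated libraries, and at 4.82, 0, 0 and 13.1 CPM in control 1 to control 4. Its log2 fold change was 1.32 ± 1.78 (SE; adjusted p = 0.940, edgeR), 0.25 without treated 4 and 2.22 without control 3 and control 4. Treated 4 also had the highest sum of basophil and mast cell markers, 390 CPM against 3.85 to 29.1 CPM in the other treated and 4.73 to 18.4 CPM in control libraries. Of that sum 377 CPM came from 1 of the 7 genes, the mast cell protease Cpa3. Prss34 stood at 8.02 CPM in treated 4 and had counts in no other library. Mcpt8, Fcer1a and Cd200r3 were at 0 in treated 4, Ms4a2 was at 0.118 CPM and Gata2 was within its range in the other treated libraries. B cell markers summed to 6113, 5125 and 3056 CPM in treated 4, treated 3 and treated 6, the highest sums of all libraries. Control 4, with 13.1 CPM of Tnfrsf8, had a B cell sum of 1656 CPM, and control 1, with 4.82 CPM, one of 2884 CPM. The part of basophil, mast cell and B cell transcripts in the level of Tnfrsf8 was not tested.

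Tnfrsf9 (4-1BB) had 63 of its 65 counts in control 3 (25.2 CPM) and was not tested. It overlaps Camta1 on the other strand, and whether counting used strand is not stated. Control 3 also held the highest T and NK cell sum (180 CPM), most of it from Nkg7 (81.7 CPM), Gzma (41.3 CPM) and Cd3d (35.7 CPM). Icos stood at 7.61 CPM in control 3 and had counts in no other library, and Cd3g and Ncr1 stood at 10.8 and 2.40 CPM there. Of the 14 genes of that list, Cd3e, Cd4, Cd8a, Cd8b1, Lck, Cd28, Foxp3 and Klrb1c were at 0 in control 3. The sort gate was CD3-. The part of T and NK cell transcripts in the level of Tnfrsf9 was not tested. Tnfrsf4 (OX40) had counts in 6 treated libraries and 1 control library, at up to 5.80 CPM in treated mice, against 0.424 CPM in control mice, and did not pass the filter on low counts. In DESeq2 its log2 fold change was 3.94 ± 1.67 (SE; adjusted p = 0.315).

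Tnfrsf12a encodes Fn14, the receptor of TWEAK. It stood at a lowest of 0.118, a median of 4.35 and a highest of 5.19 CPM in treated libraries, and at 2.03, 12.6, 23.2 and 0 CPM in control 1 to control 4. Control 2 and control 3 lay above all treated libraries and control 4 below them. The log2 fold change was -1.41 ± 1.14 (SE; adjusted p = 0.892, edgeR), and -0.43 without control 3 and -0.99 without control 3 and control 4. Tnfrsf19 (TROY) had 15 counts, all in treated 3.

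Tnfrsf26, Tnfrsf22 and Tnfrsf23 lie next to each other on mouse chromosome 7, between 143607659 and 143685872. In the mouse Tnfrsf22 and Tnfrsf23 encode decoy receptors for TRAIL, and Tnfrsf26 is a related receptor. Tnfrsf26 was among the most abundant members, at a lowest of 21.0, a median of 115 and a highest of 203 CPM in treated libraries, and at 153, 44.9, 127 and 139 CPM in control 1 to control 4. Its mean was 116 ± 66.6 CPM in treated mice (SD, n = 7), against 116 ± 48.6 CPM in control mice (SD, n = 4), which is -0.0025 ± 0.49 as a log2 fold change (SE; adjusted p = 1.00, edgeR). The 2 neighbours were far lower. Tnfrsf22 stood at a lowest of 1.00, a median of 6.17 and a highest of 21.0 CPM in treated libraries, and at 4.06, 1.13, 1.60 and 0 CPM in control 1 to control 4, with 5 of the 7 treated libraries above all controls. Its log2 fold change of 2.19 ± 1.16 (SE, with adjusted p = 0.763, edgeR) was 1.64 ± 1.26 without control 3 and control 4, and 3.10 without control 1. Tnfrsf23 stood at 0.823 to 4.74 CPM in treated mice, against 3.93, 3.54, 0 and 2.91 CPM in control 1 to control 4, which is -0.25 ± 1.07 as a log2 fold change (SE; adjusted p = 0.986, edgeR), and -0.73 without control 3 and control 4 and 0.02 without control 1.

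Per kilobase, Tnfrsf26 exceeded the sum of its 2 neighbours by 1.19 to 82.0 times in treated and by 12.003 to 104 times in control libraries. The lowest ratio was that of treated 3, where Tnfrsf26 was at its lowest and Tnfrsf22 at its highest, both at 21.0 CPM. Transcripts of Tnfrsf22 and Tnfrsf23 share 719 windows of 50 bases, 17.3% of those of Tnfrsf22 and 18.0% of those of Tnfrsf23, while neither shares any with Tnfrsf26. Reads of these 2 genes may have been split between them. The antisense gene E230032D23Rik, with 511 counts in all, overlaps the 3 receptors.

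Family members known by other symbols were also without a call. Of 15 such genes 6 were tested and 0 passed in either direction, with 5 fold changes above 0 and 1 below and a median of 0.41 on the log2 scale. Of these genes 4 had 0 counts in all libraries. Ltb, which encodes lymphotoxin beta, stood at 442 ± 148 CPM in treated mice (SD, n = 7), against 328 ± 48.8 CPM in control mice (SD, n = 4), with a log2 fold change of 0.43 ± 0.25 (SE, with adjusted p = 0.811, edgeR). Its mean of 264 CPM per kilobase over all libraries was above that of Tnfsf14. Relt, an orphan receptor of the family, stood at 142 ± 50.4 CPM in treated mice, against 119 ± 59.8 CPM in control mice, the death receptor Fas at 92.8 ± 38.0 CPM in treated mice, against 70.8 ± 29.5 CPM in controls, and Cd40 at 22.4 ± 20.2 CPM in treated mice, against 11.6 ± 10.4 CPM in controls. Cd40, which B cells also express, was highest in treated 3, treated 4 and treated 6, and in control 1 to control 4 it stood at 5.96, 0, 22.0 and 18.5 CPM. Its log2 fold change was 0.96, and 2.92 without control 3 and control 4. The part of B cell transcripts in the level of Cd40 was not tested.

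The adaptors that bind these receptors and the enzymes that modify them were all tested. Of 21 such genes 0 passed, with 14 fold changes above 0 and 7 below (over all tested genes 51.8% were above 0) and a median of 0.17. The 4 most abundant were Birc3, a ubiquitin ligase recruited by TRAF2, at 187 ± 47.9 CPM in treated mice (SD, n = 7), against 152 ± 55.9 CPM in control mice (SD, n = 4), Rbck1, of the linear ubiquitin ligase complex, at 114 ± 34.9 CPM in treated mice, against 123 ± 39.9 CPM in controls, the initiator caspase Casp8, at 113 ± 27.3 CPM in treated mice, against 111 ± 52.7 CPM in controls, and Tank, a TRAF-binding protein, at 109 ± 27.8 CPM in treated mice, against 93.1 ± 27.1 CPM in controls. Unadjusted p-values under 0.05 were found for 2 of the 21, named here after their values were seen, and for 6.82% of all tested genes. These were Traf4, at 3.86 ± 2.28 CPM in treated mice, against 0.159 ± 0.317 CPM in control mice (adjusted p = 0.626 with edgeR and 0.0159 with DESeq2), and Rnf31, at 34.4 ± 16.7 CPM in treated mice, against 16.4 ± 10.2 CPM in controls (adjusted p = 0.728, edgeR). Without control 3 and control 4 there were 3 of 21 (8.57% of all genes), namely Rnf31, Traf1 and Traf3. The log2 fold change of Rnf31 was 1.08, and 2.18 without these libraries, and Traf4 was not among the 3.

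Of 15 kinases, subunits and feedback genes of NF-kB, the transcription factor downstream of these receptors, 15 were tested and 0 passed. Fold changes were above 0 for 13 and below 0 for 2 (over all tested genes 51.8% were above 0), with a median of 0.40 on the log2 scale. The 4 most abundant were the kinase Ikbkb at 308 ± 61.1 CPM in treated mice (SD, n = 7), against 234 ± 24.8 CPM in control mice (SD, n = 4), the inhibitor Nfkbia at 176 ± 31.6 CPM in treated mice, against 188 ± 80.2 CPM in controls, the subunit Nfkb1 at 191 ± 40.3 CPM in treated mice, against 133 ± 17.8 CPM in controls, and the deubiquitinase Cyld at 173 ± 95.0 CPM in treated mice, against 145 ± 85.1 CPM in controls. In this list 3 genes had an unadjusted p under 0.05, beside 6.82% of all tested genes, and 6 without control 3 and control 4, beside 8.57% of all genes. The 3 were Nfkb1 with a log2 fold change of 0.52 ± 0.22 (SE, with adjusted p = 0.671, edgeR), the inhibitor Nfkbie with 0.86 ± 0.35 (adjusted p = 0.671, edgeR) and Tnip1, which dampens NF-kB with A20, with 0.95 ± 0.36 (adjusted p = 0.626, edgeR), the last 2 named after their values were seen. The monocyte and macrophage marker sum given above was also higher in all 7 treated libraries than in control 1 and control 2. It was the highest of all libraries in control 3 (19605 CPM) and was 4116 CPM in control 4. In control 3, Nfkb1, Nfkbie and Tnip1 stood at 151, 20.8 and 28.8 CPM, against treated means of 191, 48.3 and 41.7 CPM. The part of monocyte and macrophage transcripts in these values was not tested.

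Proteases that release family ligands and receptors from the membrane or mature them were measured as 4 genes, of which 0 passed, with a median log2 fold change of 0.31 (0.15 without control 3 and control 4). Adam10 stood at 124 ± 33.0 CPM in treated mice (SD, n = 7), against 133 ± 9.34 CPM in control mice (SD, n = 4). Adam17, the main sheddase of TNF and of both its receptors, stood at 84.1 ± 29.4 CPM in treated mice, against 65.5 ± 24.2 CPM in controls, its cofactor Rhbdf2 at 39.1 ± 13.04 CPM in treated mice, against 30.3 ± 8.90 CPM in controls, and the proprotein convertase Furin at 46.3 ± 30.1 CPM in treated mice, against 38.3 ± 18.8 CPM in controls.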

How the data were processed

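The deposited file is 1 table of raw read counts per Ensembl gene, with no normalization by the authors, in 11 libraries of sorted blood eosinophils. The build is GRCm38 and the tools named are HISAT2 2.10, SAMtools 1.15.1 and bcl2fastq 2.20.0.422, per the submitters' processing notes; which counter, strand setting and annotation were used is not stated in them. One row without a gene name held 0 counts and was left out. Groups and replicate numbers came from the titles. The members and gene lists were chosen with earlier results of these data known.

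The main test was that of edgeR 4.0.16 under R 4.3.3 (quasi-likelihood test, robust dispersions, TMM scaling, filterByExpr, Benjamini-Hochberg adjustment over 11389 genes, threshold 0.05). CPM of single genes and marker sums are TMM-scaled. Members with a mean of at least 5 CPM in a group are described in full, the others by range, and of each pathway list the 4 genes with the highest mean CPM are named. Exon lengths came from GENCODE M21 (GRCm38), in which 30 of the 31 members had the deposited position. Each library came from a different mouse, per the series design. Library pairs differed by a chi-square per gene of 59.2 or more, so none was a duplicate. The floor of 3 counts covers counting error only, since molecular identifiers are not described. Alternatives were DESeq2 1.42.0, limma-voom (limma 3.58.1), a covariate for detected genes, other scalings and filters, leaving out libraries, and a replicate block. The letters of the header identifiers as a covariate were chosen after seeing the data.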

Additional observations from a re-analysis of the deposited data

Results flagged for a closer look

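In 60 groups of values (14 described members and 16 named pathway genes in both groups), 5 had 1 library far from the others by Dixon's criterion, which chance gives in about 1 of 20 groups. Tnfrsf8 stood at 46.2 CPM in treated 4, with the next treated library at 15.7 CPM. Tnfrsf13c stood at 14.7 CPM in control 1, with the next control library at 1.45 CPM. The other 3 were control 3: Tnfrsf1a at 80.1 CPM, with the next control library at 30.7 CPM, Tnfrsf9 at 25.2 CPM, with 0 in the other control libraries, and Adam17 at 101 CPM, with the next at 58.0 CPM. Control 3 also had the highest haemoglobin share (28.2%) and the highest monocyte and macrophage marker sum, and their part in these values was not tested.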

How the results depend on the processing

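With DESeq2, 57 genes passed as higher and 22 as lower, and 1 member was among those higher (Tnfrsf11a, log2 fold change 7.27, adjusted p = 0.00169); 0 genes were called by edgeR and by each edgeR or voom alternative run, and leaving out each library in turn gave 0 to 0 calls. The cause was not tested. Tnfrsf1b, Tnfrsf11a, Tnfrsf12a, Tnfrsf14, Tnfrsf18, Tnfrsf22 and Tnfsf13 kept their direction under every alternative run. The other log2 fold changes changed sign in places. Limma-voom gave 0.017 for Tnfrsf13b and 0.13 for Tnfrsf21. No filter gave 0.027 for Tnfrsf26. Detected genes as a covariate gave 0.049 for Tnfrsf21 and 0.19 for Tnfrsf26, and leaving out control 3 and control 4 gave 0.56 and 0.25. The identifier letters, added after seeing the data, are nearly confounded with group (all 4 controls share theirs with treated 1 alone), so that this fit compares the groups through 1 treated library; it gave 0.28 for Tnfrsf10b, -0.76 for Tnfrsf13c, 0.72 for Tnfrsf26, -7.83 for Tnfrsf8 and 0.15 for Tnfsf14. Without single libraries, values ran from -0.47 to 0.48 for Tnfrsf10b, -0.44 to 0.33 for Tnfrsf13b, -0.17 to 0.80 for Tnfrsf1a, -0.92 to 0.16 for Tnfrsf21, -0.63 to 0.017 for Tnfrsf23 and -0.27 to 0.18 for Tnfrsf26. Same-numbered libraries did not deviate together (correlations -0.0315, 0.0212, -0.116 and -0.0417), and the replicate block, with 0 calls, gave 0.33 for Tnfrsf13b, -0.15 for Tnfrsf1a, 0.64 for Tnfrsf23 and 3.26 for Tnfrsf22.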
